A study of Mus musculus with 13 samples.

Results

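The kinesins are the motor proteins that walk along microtubules, and the 38 protein-coding genes whose symbol is Kif followed by a number and at most 1 letter from a to c were taken as the family here, of 52550 genes in the count table. By textbook role, 13 of them carry vesicles and organelles along axons and dendrites, 12 act in mitosis and cytokinesis, 6 belong to the cilium or to Hedgehog signalling, and 7 shape microtubules or have other roles. The libraries came from mouse retinal cells sorted for Thy1.2, a surface antigen of retinal ganglion cells (RGCs), the neurons whose axons form the optic nerve. In the knockout dataset, adults labelled P42 with a floxed Kdm6a gene (also called UTX, a histone H3K27 demethylase) had been injected in the eye with AAV2-Cre (2 libraries, labelled UTX knockout) or AAV2-GFP (3 libraries, labelled wild type), and all 5 libraries were taken 3 days after optic nerve crush. AAV2 infects mainly RGCs when given into the eye, so cells of other types need not carry the deletion. The development dataset held uninjured wild type mice at postnatal day (P) 1 (3 libraries), P14 (3 libraries) and P21 (2 libraries).

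Most kinesins walk toward the growing plus end of the microtubule. In an axon the plus ends point away from the cell body, and these motors carry synaptic vesicle precursors, mitochondria, neurofilaments and endosomes outward, while cytoplasmic dynein carries cargo back. A second set of kinesins builds the spindle, aligns chromosomes and divides the cell. Neurons do not divide, so genes of this second set mark mainly dividing cells, though some of these motors are also known to act on microtubules of growing axons.

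Total counts were 13637602 to 16070720 per library in the knockout dataset and 30357454 to 38812917 in the development dataset. Levels are CPM (counts scaled to library size) after TMM scaling over all 13 libraries, and levels of different genes are compared only as CPM per kilobase of exon. Kdm6a had 110.4 and 112 CPM in the AAV2-Cre libraries, against 115, 96.6 and 119 CPM in the AAV2-GFP libraries (log2 fold change -0.02, SE 0.15, edgeR adjusted p = 0.96). The floxed part is exon 3 alone, and a count over the whole gene does not check its removal. The 28 RGC markers took 1.46% to 1.60% of counts at P1, 0.222% to 0.253% at P14 and 0.0750% to 0.138% at P21. They took 0.0745% and 0.0846% in the AAV2-Cre libraries, and 0.0769% to 0.0916% in the AAV2-GFP libraries, with at most 2 of the 28 at 0 in any library. Rod photoreceptor markers took 1.57% and 3.32% of counts in the AAV2-Cre libraries, against 3.48% to 4.17% in the AAV2-GFP libraries. At every age of the development dataset rod markers took at most 0.159%. In bulk samples, fewer cells of a type and less RNA per cell cannot be told apart.

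All kinesins together took 0.188% and 0.189% of counts in the AAV2-Cre libraries and 0.241% to 0.242% in the AAV2-GFP libraries. Their share was 0.795% to 0.845% at P1, 0.326% to 0.334% at P14, and 0.360% and 0.329% at P21. The P1 libraries thus lay apart from all others. Of the 38 genes, 35 passed the low-count filter in the knockout dataset and 36 in the development dataset. Kif2b, a microtubule depolymerase of the spindle, had 0 counts in all 13 libraries. Kif12 had between 5 and 9 counts at P1, 3 counts in 1 P14 library and 0 elsewhere, and Kif28 had at most 25 counts in any library.

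Promoter sequences are shown for a short element that many mitotic kinesin genes share. The RefSeq promoter table (build GRCm38.p6, 250 bases before to 50 bases after a start) held 35 promoters of 31 of the 38 genes. Kif13b, Kif19a, Kif20a, Kif21b, Kif28, Kif5a and Kif5b were not matched. The cell cycle genes homology region (CHR) is a short element near the start of many genes that are expressed in G2 and mitosis. Its letters TTTGAA, searched on both strands, were in 9 of 11 promoters of mitotic kinesins (81.8%) and in 1 of 12 promoters of transport kinesins (8.33%), which belonged to another start site of Kif1a than the one printed. It was in 17.9% of all 32851 RefSeq promoters. The CCAAT box, searched on both strands, was in 7 of 11 mitotic promoters (63.6%) and 4 of 12 transport promoters (33.3%), with 37.4% among all promoters. The GC box GGGCGG, also on both strands, was in 6 of 11 mitotic promoters (54.5%), in 9 of 12 transport promoters (75%) and in 35.7% of all promoters. The 12 transport promoters belong to 10 genes, since Kif1a and Kif1b have more than 1 start. The Kif1b windows overlap, so its CCAAT and GC boxes count more than once. In the stretches printed no CHR match overlapped a CCAAT match. A match is a description of the letters and not a bound site.

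The 120 bases before the start of Kif11, Kif22 and Kif15 are printed as mitotic kinesins with the CHR letters close to the start. Those of Kif5c and Kif1a are printed as transport kinesins with neither the CHR letters nor a CCAAT box in the stretch. Of the mitotic kinesins not printed, Kif2c had the CHR letters within the same 120 bases. Kif14, Kif18a, Kif18b, Kif20b, Kif23, Kif2b and Kif4 did not. Capitals mark the CHR letters (TTTGAA or, on the other strand, TTCAAA) and the CCAAT box (CCAAT or ATTGG). In Kif11, on chr19:37376262-37376381 of the plus strand, and in Kif22, on chr7:127042421-127042540 of the minus strand, both elements stood in the order CCAAT box, then CHR. Kif15, on chr9:122950961-122951080 of the plus strand, had the CHR letters alone. The Kif5c stretch was chr2:49619166-49619285 of the plus strand and that of Kif1a was chr1:93101875-93101994 of the minus strand.
Kif11: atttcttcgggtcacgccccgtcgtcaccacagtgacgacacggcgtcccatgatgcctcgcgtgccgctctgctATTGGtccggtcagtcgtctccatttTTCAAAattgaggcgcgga
Kif22: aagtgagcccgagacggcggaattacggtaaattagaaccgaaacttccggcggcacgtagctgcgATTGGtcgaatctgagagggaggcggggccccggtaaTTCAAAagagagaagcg
Kif15: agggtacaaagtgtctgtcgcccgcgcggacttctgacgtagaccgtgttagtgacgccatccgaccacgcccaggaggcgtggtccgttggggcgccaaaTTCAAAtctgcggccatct
Kif5c: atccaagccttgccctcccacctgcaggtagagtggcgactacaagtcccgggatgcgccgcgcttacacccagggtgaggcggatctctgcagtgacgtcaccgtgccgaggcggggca
Kif1a: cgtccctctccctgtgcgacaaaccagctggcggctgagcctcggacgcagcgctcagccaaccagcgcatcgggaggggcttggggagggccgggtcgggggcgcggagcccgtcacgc

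Between P14 and P1 the family moved mostly down. Of 36 kinesins tested, 23 were lower at P14 (63.9% of them, against 33.6% of the 20890 genes tested that were lower) and 4 were higher (background 33.6%). The median log2 fold change of the kinesins was -0.86, against -0.01 for all genes tested. The medians were -0.85 for transport, -0.87 for mitosis, -0.70 for cilium and Hedgehog, and -1.34 for microtubule dynamics and other roles. Calls are at an edgeR adjusted p under 0.05 with no limit on the fold. A limit of 1 on the log2 scale left 13 lower and 2 higher, beside 3181 lower and 4123 higher of all 20890 genes tested.

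**Figure D1:**
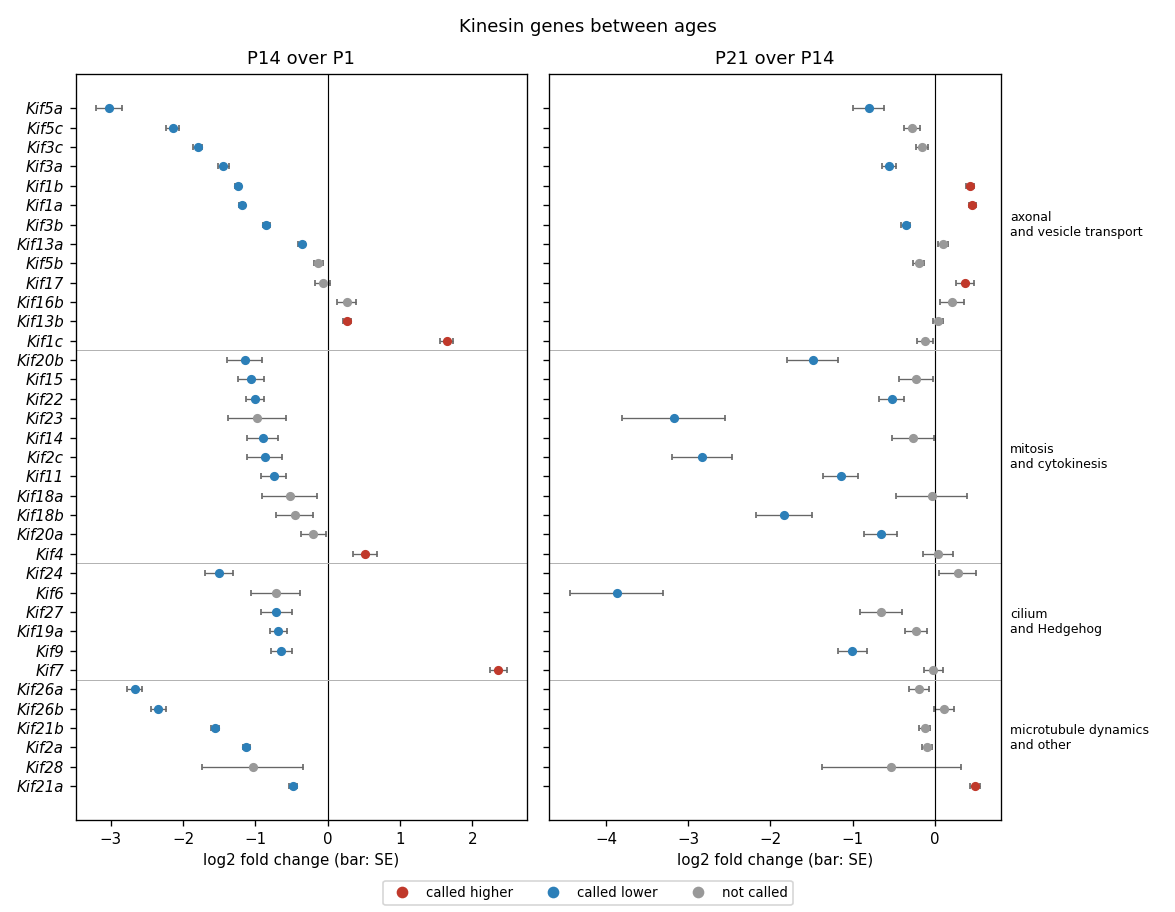
Log2 fold changes of the 36 tested kinesins for P14 over P1 and P21 over P14 (x axes), with bars for the SE, ordered by role. Kif5a had the lowest P14 over P1 value (-3.02) and Kif7 the highest (2.36), and Kif6 (-3.87) and Kif23 (-3.18) had the lowest P21 over P14 values.

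For P14 over P1, Kif5a had the lowest value of the 36 tested. Kif5a, Kif5b and Kif5c encode the heavy chains of conventional kinesin (kinesin-1), which carries vesicles, mitochondria and neurofilament proteins, and Kif5a and Kif5c are the neuronal forms. Kif5a, on chromosome 10 from 127225696 to 127263348 of GRCm38, had 51.0 and 45.3 CPM in AAV2-Cre libraries, 49.99, 41.4 and 42.1 CPM in AAV2-GFP libraries, 1973, 1889 and 2152 CPM at P1, 239.7, 249.8 and 267 CPM at P14, and 181 and 97.4 CPM at P21. Its 3 P14 libraries lay far below its 3 P1 libraries, and both P21 libraries lay below all of P14. The log2 fold change was -3.02 for P14 over P1 (SE 0.18, edgeR adjusted p = 2.8e-07), so that P14 had 0.123 times the P1 level. For P21 over P14 it was -0.80 (SE 0.19, edgeR adjusted p = 0.011). The P21 library with the lower Kif5a level also had the lower RGC marker share (0.0750%, against 0.138% in the other).

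Kif5c had 197 and 189 CPM in AAV2-Cre libraries, 220.3, 193 and 206 CPM in AAV2-GFP libraries, 980.1, 964 and 1032 CPM at P1, 222, 230 and 235 CPM at P14, and 210.1 and 153 CPM at P21. It fell by 2.15 on the log2 scale for P14 over P1 (SE 0.09, edgeR adjusted p = 3.5e-08). Its P21 over P14 value of -0.28 was not called by edgeR (SE 0.10, edgeR adjusted p = 0.056). DESeq2 and limma-voom called Kif5c lower at P21 than at P14 (adjusted p = 0.024 and 0.023). Kif5b, the form found in most cell types, had 249 and 285 CPM in AAV2-Cre libraries, 262, 255 and 289 CPM in AAV2-GFP libraries, 151, 153 and 152 CPM at P1, 146, 145 and 134 CPM at P14, and 128 and 110.3 CPM at P21. Its P14 over P1 value was -0.13 (SE 0.06, edgeR adjusted p = 0.081) and its P21 over P14 value was -0.19 (SE 0.07, edgeR adjusted p = 0.053). Neither was called by edgeR, while limma-voom called Kif5b lower in both comparisons (adjusted p = 0.044 and 0.031).

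The make-up of kinesin-1 therefore differed between ages. Per kilobase, Kif5a gave 64.5% ± 0.818 of the summed Kif5 level at P1 (SD, n = 3), 41.98% ± 1.31 at P14 (n = 3) and 32.3% ± 5.66 at P21 (n = 2). Kif5b gave 4.29% ± 0.238, 20.7% ± 1.45 and 25.3% ± 3.93 at the same ages. In the injured adults Kif5b gave the largest part, 49.6% ± 3.40 in AAV2-Cre libraries (n = 2) and 48.8% ± 2.30 in AAV2-GFP libraries (n = 3), and Kif5a gave 10.2% ± 1.15 and 9.23% ± 0.816. The Kif5c part stayed between 30.7% and 43.6% in all 13 libraries. Age, injury, genotype and dataset differ together between the injured and the development libraries and cannot be told apart, so no test is given across the datasets.

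**Figure D2:**
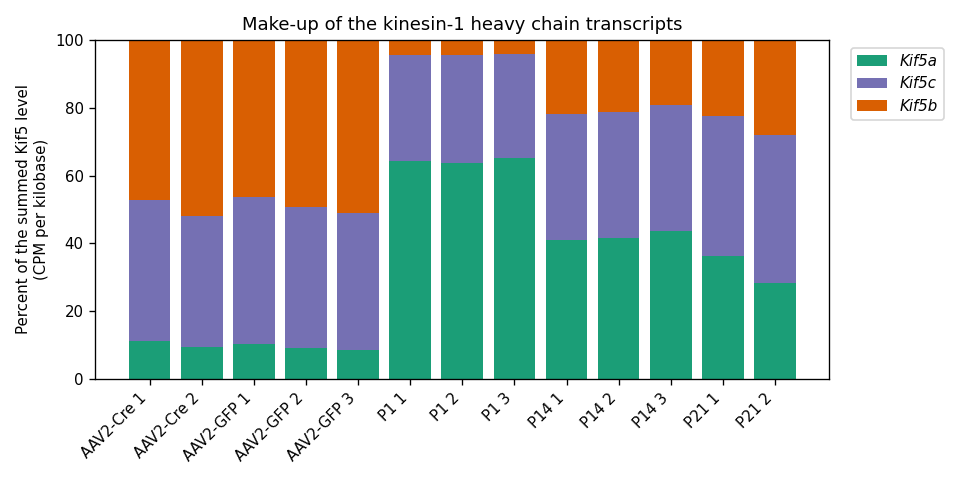
Percent of the summed Kif5 level (CPM per kilobase, y axis) given by Kif5a, Kif5c and Kif5b in each of the 13 libraries (x axis). Kif5a gave 63.7% to 65.3% in the P1 libraries and 8.47% to 11.1% in the injured adult libraries.

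Kif1a had the most CPM per kilobase of all kinesins when the 13 libraries were averaged, though Kif5a was above it at P1. Kif1a carries synaptic vesicle precursors and dense core vesicles, and Kif1b carries mitochondria or synaptic vesicle precursors, depending on the isoform. Kif1a had 355 and 316 CPM in AAV2-Cre libraries, 411, 345 and 381 CPM in AAV2-GFP libraries, 1812, 1770 and 1876 CPM at P1, 814, 831 and 809 CPM at P14, and 1108 and 1057 CPM at P21. Kif1b had 268 and 381 CPM in AAV2-Cre libraries, 603, 604 and 534 CPM in AAV2-GFP libraries, 1186, 1172 and 1219 CPM at P1, 515, 525 and 503 CPM at P14, and 691 and 642 CPM at P21. Both genes had their lowest developmental level at P14, with no overlap between the ages. Kif1a had a log2 fold change of -1.18 for P14 over P1 (SE 0.04, edgeR adjusted p = 8.9e-09) and of 0.46 for P21 over P14 (SE 0.04, edgeR adjusted p = 4.5e-05). For Kif1b these were -1.24 (SE 0.04, edgeR adjusted p = 1.0e-08) and 0.43 (SE 0.04, edgeR adjusted p = 0.00011). The comparisons share the P14 libraries.

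Per kilobase the order of the 5 leading transport motors changed with age. At P1 it ran Kif5a (287 ± 19.2 CPM per kilobase), Kif1a (195 ± 5.74), Kif5c (139 ± 4.94), Kif1b (67.7 ± 1.37) and Kif3a (63.8 ± 2.98). The last 2 of these lay close, and the gaps above them were larger than the SDs (n = 3). At P14 Kif1a stood first (87.7 ± 1.24) before Kif5a (36.1 ± 1.98), Kif5c (32.1 ± 0.938), Kif1b (29.2 ± 0.626) and Kif13a (25.4 ± 1.15). At P21 Kif1a stood at 116 ± 3.82 (n = 2). In the injured adults Kif1a (36.0 ± 2.94 in AAV2-Cre and 40.6 ± 3.52 in AAV2-GFP libraries) and Kif5b (33.5 ± 3.21 and 33.7 ± 2.26) led the list. Kif1a and Kif5b did not differ beyond their spread in the AAV2-Cre libraries, nor did Kif5b and Kif1b (33.0 ± 2.29) in the AAV2-GFP libraries.

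**Figure D3:**
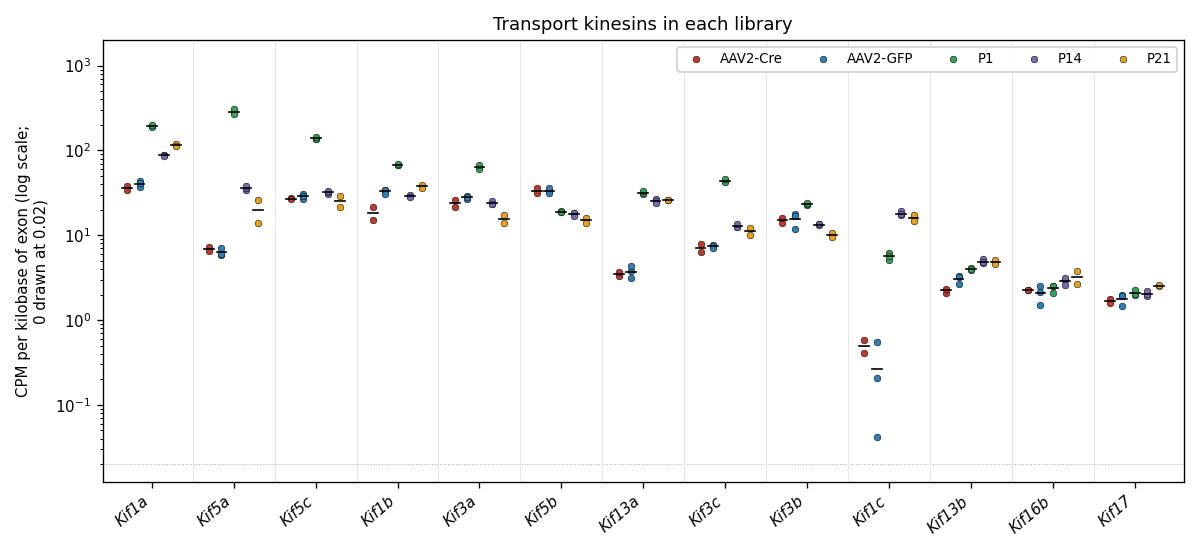
CPM per kilobase of exon (y axis, log scale) of the 13 transport kinesins in each library, with a line at the mean of each group. Kif5a averaged 36.1 CPM per kilobase at P14 and 287 at P1, while Kif5b was above all development libraries in all 5 injured adult libraries.

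Kif3a, Kif3b and Kif3c of kinesin-2 also fell at P14. Kif3a pairs with Kif3b or Kif3c, and the Kif3a and Kif3b pair with its adaptor Kifap3 drives transport into cilia and of vesicles in axons. Kif3a had 78.2 and 93.6 CPM in AAV2-Cre libraries, 103, 97.0 and 101 CPM in AAV2-GFP libraries, 229, 218 and 239 CPM at P1, 83.3, 91.1 and 83.6 CPM at P14, and 62.2 and 50.5 CPM at P21. It was lower at P14 than at P1 (-1.44, SE 0.07, edgeR adjusted p = 9.2e-08) and lower at P21 than at P14 (-0.56, SE 0.08, edgeR adjusted p = 0.00081). Kif3b had the same 2 calls, at -0.85 and -0.35. Kif3c, which is enriched in neurons, had 319, 314 and 341 CPM at P1, 92.6, 93.3 and 100 CPM at P14, and 89.5 and 75.5 CPM at P21. In the injured adults it had 58.7 and 46.7 CPM in AAV2-Cre libraries, against 57.5, 54.8 and 52.0 CPM in AAV2-GFP libraries. Its log2 fold change for P14 over P1 was -1.80 (SE 0.06, edgeR adjusted p = 1.4e-08), and 35.3% of its exon length is shared with 1110002L01Rik on the other strand, which had 3315 counts in all against 53042 for Kif3c. Libraries from this kit do not mark strand, so reads of shared bases are uncertain. Per kilobase, Kif3c gave 33.4% ± 0.197 of the summed kinesin-2 level of Kif3a, Kif3b and Kif3c at P1, 25.6% ± 1.11 at P14 and 30.2% ± 0.118 at P21.

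The other transport motors moved less or in the other direction. Kif1c, a motor of vesicles and of transport between the Golgi and the endoplasmic reticulum that is found in many cell types, had 140.0, 125 and 129 CPM at P14, against 36.7, 45.2 and 41.0 CPM at P1. The P14 libraries were all higher, at 3.14 times the P1 level (log2 fold change 1.65, SE 0.09, edgeR adjusted p = 1.25e-07). It had 125 and 108 CPM at P21, but 4.28 and 2.94 CPM in AAV2-Cre libraries, and 4.02, 1.51 and 0.301 CPM in AAV2-GFP libraries. Kif13b, which binds the scaffold protein Dlg1, had 61.3, 67.4 and 62.8 CPM at P14, against 50.9, 53.3 and 51.8 CPM at P1 (0.27, SE 0.06, edgeR adjusted p = 0.0024). It had 66.4 and 60.0 CPM at P21, 27.5 and 30.7 CPM in AAV2-Cre libraries, and 34.9, 42.6 and 41.5 CPM in AAV2-GFP libraries. Its P14 libraries lay above its P1 libraries by a small margin. Kif13a, an endosomal motor, was lower at P14 (-0.36), and Kif16b, a motor of early endosomes, was not called in either comparison (0.26 and 0.21). Kif17, the kinesin-2 motor known for moving NMDA receptor subunits in dendrites, had 9.09, 9.25 and 10.4 CPM at P1, 8.73, 9.19 and 10.1 CPM at P14, and 11.4 and 11.8 CPM at P21. The P1 and P14 libraries overlapped. It had 8.21 and 7.29 CPM in AAV2-Cre libraries, and 8.98, 8.77 and 6.68 CPM in AAV2-GFP libraries. Its P21 over P14 value of 0.37 was called (SE 0.11, edgeR adjusted p = 0.032), and the call was lost without P14 replicate 1, P14 replicate 2, P21 replicate 1 or P21 replicate 2 (adjusted p = 0.067 to 0.15).

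Markers of other cell types moved with age as well. All 17 Muller glia and astrocyte markers, all 12 pericyte and smooth muscle markers, all 12 endothelial markers and all 16 microglia and macrophage markers were higher at P14 than at P1, and 25 of 28 RGC markers were lower (median -2.99). At P21, 18 of 28 RGC markers were lower than at P14 (median -1.12). Among all genes tested, 33.6% were called in each direction for P14 over P1, and 19.3% were called lower for P21 over P14. The Muller glia and astrocyte share was 0.236% to 0.616% at P1, 2.35% to 2.48% at P14 and 4.16% to 4.36% at P21. The pericyte and smooth muscle share was 0.0126% to 0.0405% at P1, 0.491% to 0.547% at P14 and 0.0735% to 0.108% at P21. Their part in the kinesin changes was not tested.

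All 6 tested genes of the group of microtubule dynamics and other roles had values below 0 for P14 over P1. Of these, 5 were called lower (background 33.6%). Kif26a, an unusual kinesin that lacks motor activity and is known from mouse enteric neurons as a brake on growth factor signalling, had 11.2, 12.4 and 11.9 CPM at P14, against 73.0, 69.1 and 78.7 CPM at P1. Kif26b, its relative known from kidney development, had 23.7, 23.6 and 24.5 CPM at P14, against 121, 115 and 121 CPM at P1. Neither gene's P14 libraries came near its P1 libraries, and the log2 fold changes were -2.67 (SE 0.10, edgeR adjusted p = 2.3e-08) and -2.34 (SE 0.10, edgeR adjusted p = 4.5e-08). Kif26a had 11.6 and 8.34 CPM at P21 and Kif26b 29.5 and 20.4 CPM. Kif26a had 1.81 and 2.75 CPM in AAV2-Cre libraries and 1.44, 2.06 and 0.963 CPM in AAV2-GFP libraries. Kif26b had 1.16 and 0.959 CPM in AAV2-Cre libraries and 1.65, 3.39 and 0.241 CPM in AAV2-GFP libraries. Both were far below their levels at any age of the development dataset. Kif21b, a kinesin-4 motor that restrains microtubule growth, had 246, 255 and 264 CPM at P14, against 720.5, 700.5 and 784 CPM at P1 (-1.56, SE 0.06, edgeR adjusted p = 2.1e-08). It had 242 and 209.6 CPM at P21. Kif2a, a kinesin-13 that takes microtubules apart and limits axon branching, was lower at P14 by 1.12 on the log2 scale. Its exons share 19.2% of their length with Dimt1 on the other strand, which had 6473 counts in all against 23893 for Kif2a.

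Kif21a, the close relative of Kif21b that is mutated in human congenital fibrosis of the extraocular muscles, went down and then up. It had 234, 229 and 223 CPM at P1, 168, 177 and 157 CPM at P14, and 234 and 218 CPM at P21. In the injured adults it had 166 and 165 CPM in AAV2-Cre libraries, against 228, 173 and 178 CPM in AAV2-GFP libraries. The P14 libraries were the lowest of the development dataset, with -0.48 for P14 over P1 (SE 0.06, edgeR adjusted p = 3.7e-05) and 0.49 for P21 over P14 (SE 0.06, edgeR adjusted p = 0.00034). Kif1a, Kif1b and Kif21a were the 3 kinesins called lower at P14 and higher at P21.

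The cilium and Hedgehog group held the largest rise. Kif7, the vertebrate counterpart of fly Costal-2 that regulates Gli proteins at the tip of the primary cilium, had 25.4, 22.4 and 22.4 CPM at P14, against 3.97, 5.15 and 4.29 CPM at P1. The P14 libraries had 5.14 times the P1 level (log2 fold change 2.36, SE 0.12, edgeR adjusted p = 7.9e-08), and P21 libraries stayed at 21.9 and 22.6 CPM. In AAV2-Cre libraries Kif7 had 0.871 and 2.43 CPM, and in AAV2-GFP libraries 0.862, 1.87 and 0.482 CPM. Its exons share 19.1% of their length with 9330171B17Rik on the other strand, which had 216 counts in all against 4634 for Kif7. Kif24, Kif27, Kif19a and Kif9 were lower at P14 than at P1 (-1.50 to -0.64), and the call of Kif27 was lost without P14 replicate 1 (adjusted p = 0.055). Kif9, a motor of motile cilia and the sperm flagellum, had 3.67, 4.38 and 3.94 CPM at P14 and 6.06, 6.50 and 5.70 CPM at P1. It fell again to 2.10 and 1.72 CPM at P21 (edgeR adjusted p = 0.0024). Kif9 had 11.2 and 9.01 CPM in AAV2-Cre libraries and 14.9, 13.0 and 13.1 CPM in AAV2-GFP libraries, above every development library. Kif6 had 1 and 8 counts at P21, against 71, 83 and 58 counts at P14, and was called lower (edgeR adjusted p = 0.00080).

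Mitotic kinesins were a small part of the family in the development dataset. They took 12.4 ± 0.665 CPM per kilobase in sum at P1, 8.16 ± 0.663 at P14 and 4.67 ± 0.470 at P21, against 884 ± 37.5, 306 ± 2.44 and 304 ± 28.2 for the transport kinesins. Between P14 and P1, 6 of 11 tested were lower (background 33.6%), 1 was higher (background 33.6%) and 4 were not called. Between P21 and P14, 7 of 11 were lower and none was higher, with a median of -0.66, against -0.00 for all genes tested. Over all kinesins 12 of 36 were lower at P21 than at P14 (background 19.3%), 4 were higher (background 14.6%) and 20 were not called. The 4 higher genes were Kif1a, Kif1b, Kif17 and Kif21a, none of them mitotic.

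Kif11, also called Eg5, slides spindle microtubules apart and is the target of antimitotic drugs. It had 9.89, 10.97 and 12.1 CPM at P1, 5.63, 7.92 and 6.56 CPM at P14, and 3.55 and 2.26 CPM at P21. The ages did not overlap, with -0.74 for P14 over P1 (SE 0.18, edgeR adjusted p = 0.0038) and -1.14 for P21 over P14 (SE 0.22, edgeR adjusted p = 0.0032). Kif20b, a motor of cytokinesis, had 0.984 and 0.742 CPM at P21, against 2.64, 3.28 and 1.70 CPM at P14 (-1.49, SE 0.31, edgeR adjusted p = 0.0055). Kif2c, which removes wrong attachments of microtubules at centromeres, had 0.164 and 0.445 CPM at P21, against 2.13, 2.53 and 2.11 CPM at P14. Kif23, the motor of the centralspindlin complex that sets up cytokinesis, had 0.984 and 0.00 CPM at P21, against 5.07, 5.20 and 4.09 CPM at P14. At P1 Kif20b had 5.12, 5.30 and 6.04 CPM, Kif2c 4.12, 3.58 and 4.43 CPM, and Kif23 9.62, 7.74 and 10.3 CPM. All 3 genes were thus lowest at P21. The P21 libraries held 6 and 15 counts of Kif2c and 36 and 0 counts of Kif23, so these falls (-2.83, SE 0.37, and -3.18, SE 0.63) rest on few reads. Kif18b was also lower at P21 (-1.83), with 24 counts in each P21 library. The falls of Kif20a and Kif22 at P21 were the least stable. Kif20a lost its call without P14 replicate 2, P14 replicate 3 or P21 replicate 2, and Kif22 without P14 replicate 2, P14 replicate 3 or P21 replicate 1.

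**Figure D4:**
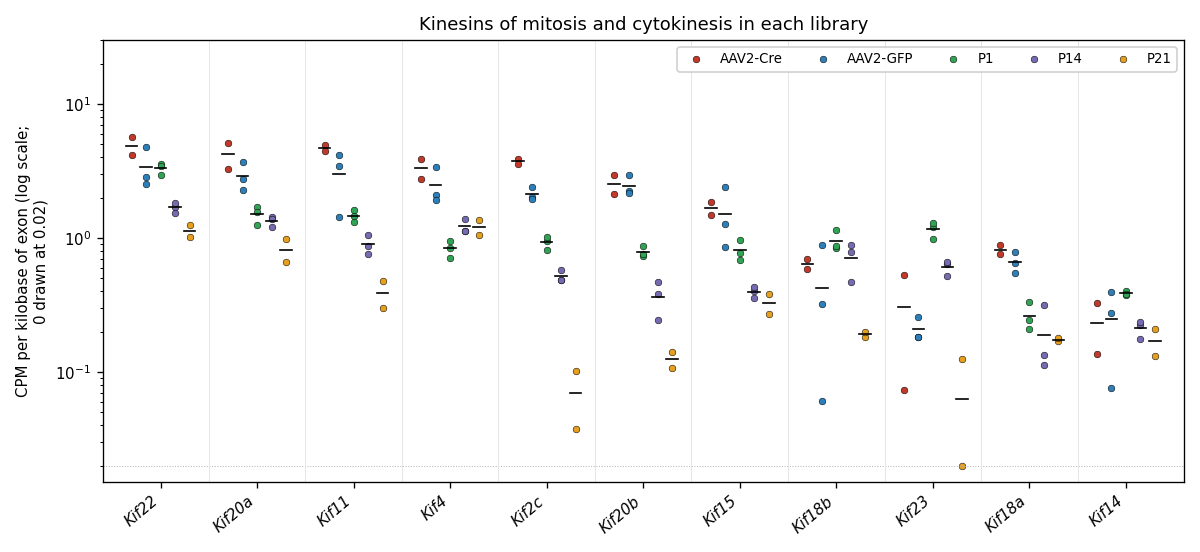
CPM per kilobase of exon (y axis, log scale) of 11 mitotic kinesins in each library, with a line at the mean of each group and 0 drawn at the dotted line. Kif11, Kif2c and Kif20b stepped down from P1 to P14 and P21, and Kif4 did not.

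Kif4 went against the other mitotic motors. This chromokinesin, which condenses chromosomes and organises the central spindle, had 3.88, 5.27 and 4.66 CPM at P1, 6.25, 6.27 and 7.67 CPM at P14, and 7.55 and 5.79 CPM at P21. Its P14 libraries lay above its P1 libraries (0.52, SE 0.16, edgeR adjusted p = 0.019). The call was lost without P1 replicate 1 (adjusted p = 0.071) or without P14 replicate 3 (adjusted p = 0.078). Its exons share 15.1% of their length with Pdzd11 on the other strand, which had 11090 counts in all against 2849 for Kif4. For Kif20a the shared part with Cdc23 was 29.3%, with 27906 counts for Cdc23 and 2668 for Kif20a.

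In all 5 injured adult libraries the mitotic kinesins Kif18a, Kif20a, Kif20b, Kif2c and Kif4 lay above all 8 development libraries. How many of all genes did so was not counted, so this is not read as a trait of mitotic kinesins. The summed mitotic level was 27.1 ± 5.14 CPM per kilobase in AAV2-Cre libraries (n = 2) and 19.4 ± 3.80 in AAV2-GFP libraries (n = 3). Kif11 had 37.1 and 33.4 CPM in AAV2-Cre libraries and 10.8, 25.6 and 31.2 CPM in AAV2-GFP libraries. Kif20b had 20.7 and 14.8 CPM in AAV2-Cre libraries and 15.7, 15.0 and 20.5 CPM in AAV2-GFP libraries. Kif4 had 21.6 and 15.2 CPM in AAV2-Cre libraries and 11.6, 10.6 and 18.8 CPM in AAV2-GFP libraries. The AAV2-Cre and AAV2-GFP libraries overlapped for Kif20b and Kif4, and for Kif11 both AAV2-Cre libraries lay above. Kif23, with 4.21 and 0.575 CPM in AAV2-Cre libraries and 1.44, 1.45 and 2.05 CPM in AAV2-GFP libraries, lay below its P1 level. Microglia and macrophage markers took 1.01% and 1.31% of counts in AAV2-Cre libraries and 0.816% to 1.16% in AAV2-GFP libraries, against at most 0.0430% in the development libraries. Markers of T, NK and B cells took 0.136% and 0.250% in AAV2-Cre libraries and 0.0578% to 0.117% in AAV2-GFP libraries, against at most 0.00155% in the development libraries. Their part in the mitotic levels was not tested. The transport kinesins Kif13a, Kif13b, Kif1a, Kif1c, Kif3c and Kif5a lay below all development libraries in all 5 injured libraries, and Kif5b lay above. Outside the transport group, Kif7, Kif21b, Kif26a, Kif26b and Kif2a also lay below, and Kif9 lay above. The share of all genes that lay apart in this way was not counted.

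Between AAV2-Cre and AAV2-GFP libraries no kinesin passed the edgeR test. Of 35 tested, edgeR called 0 higher (background 1.33%) and 0 lower (background 0.294%), and 5 had an unadjusted p under 0.05, with 2 higher (Kif19a and Kif2c) and 3 lower (Kif1b, Kif21b and Kif13b). Of all 18395 genes tested 16.5% had such a p, close to the share of kinesins. DESeq2 called Kif19a higher and Kif1b and Kif21b lower, and limma-voom called Kif1b lower. Of all 18395 genes tested, DESeq2 called 798 higher and 528 lower, and limma-voom called 360 higher and 96 lower. The median log2 fold change was -0.11 for transport kinesins and 0.48 for mitotic kinesins, against -0.03 for all genes tested. The 2 AAV2-Cre libraries limit this comparison.

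Kif1b came nearest to the threshold. Its 2 AAV2-Cre libraries (268 and 381 CPM) lay below its 3 AAV2-GFP libraries (603, 604 and 534 CPM), with a log2 fold change of -0.88 (SE 0.18, edgeR adjusted p = 0.055). The rod marker share in the same libraries was 1.57% and 3.32% in AAV2-Cre, against 4.17%, 3.48% and 3.69% in AAV2-GFP, and its part in the Kif1b value was not tested. Kif1b was called lower with DESeq2 (adjusted p = 0.00031), limma-voom (0.028), library totals as the only scaling (0.047), every gene with a count kept (0.00018), a floor of 10 counts per library (0.033) and a joint fit of the 13 libraries (0.0019). Kif1b was not called when any 1 of the 5 libraries was left out.

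Kif19a, which shortens motile cilia by taking microtubules apart at their tips, had 6.46 and 6.07 CPM in AAV2-Cre libraries, against 1.94, 2.72 and 1.69 CPM in AAV2-GFP libraries (1.52, SE 0.46, edgeR adjusted p = 0.14). The groups did not overlap, but the counts were 89 and 95 against 27, 45 and 28. In the development dataset Kif19a had 13.0, 13.3 and 12.4 CPM at P1, 7.31, 8.02 and 9.33 CPM at P14, and 6.32 and 7.19 CPM at P21. Kif21b had 73.3 and 53.2 CPM in AAV2-Cre libraries, against 79.4, 114 and 136 CPM in AAV2-GFP libraries (-0.84, SE 0.26, edgeR adjusted p = 0.15). Kif2c had 17.1 and 15.5 CPM in AAV2-Cre libraries, against 8.76, 8.59 and 10.5 CPM in AAV2-GFP libraries (0.77, SE 0.26, edgeR adjusted p = 0.19). edgeR called none of these 3, while DESeq2 called Kif19a and Kif21b (adjusted p = 0.043 and 0.035). The neuronal kinesin-1 genes lay close to 0, with 0.08 for Kif5a (SE 0.18), -0.14 for Kif5c (SE 0.14) and -0.05 for Kif5b (SE 0.15).

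**Figure D5:**
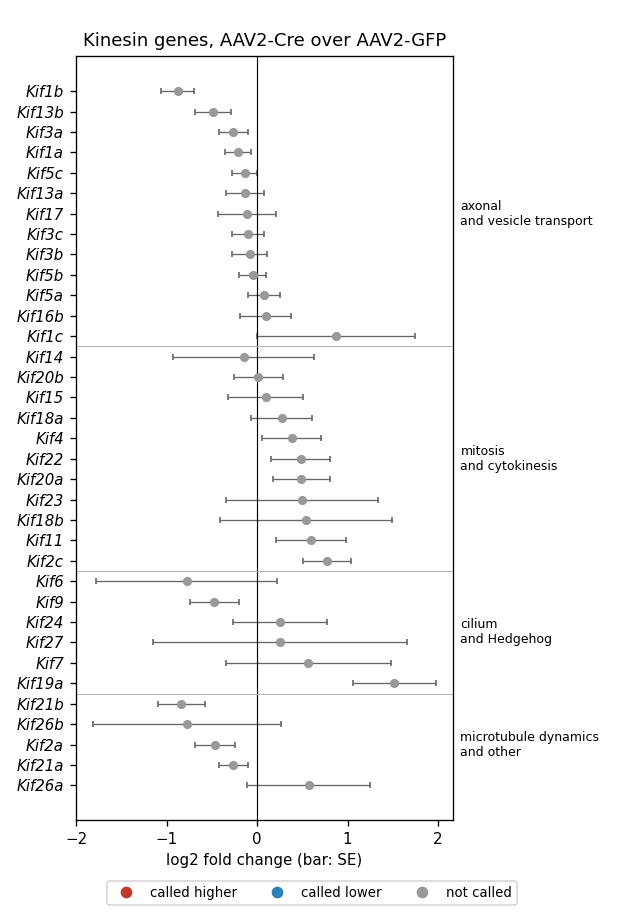
Log2 fold changes of the 35 tested kinesins for AAV2-Cre over AAV2-GFP (x axis), with bars for the SE, ordered by role. edgeR called no gene, and 10 of 11 mitotic kinesins had a value above 0. Of these, Kif20b (0.01) was at -0.04 without scaling and at -0.21 without AAV2-Cre replicate 1.

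Of the 11 mitotic kinesins tested, 10 had a positive value (0.01 to 0.77) and Kif14 had -0.15. Kif20b changed sign in several settings, with -0.04 without scaling and -0.21 without AAV2-Cre replicate 1. Kif23 had -0.20 with limma-voom and -1.51 without AAV2-Cre replicate 1. Another 22 genes of the mitotic spindle, such as Top2a and Racgap1, were tested beside the mitotic kinesins. All 22 had a positive value (median 0.66, against -0.03 for all genes tested), with 0 called by edgeR or limma-voom. DESeq2 called 3 of the 22 higher, beside 798 of all 18395 genes tested. Of the 22, 8 had an unadjusted edgeR p under 0.05, against 16.5% of all genes tested. The spindle genes were measured in the same 5 libraries, so their signs are not independent. The share of all genes with a positive value was not counted. Without AAV2-Cre replicate 1 the median of the mitotic kinesins was 0.17. That library had the T, NK and B cell marker share of 0.250%, against 0.136% in the other AAV2-Cre library. All 21 markers of that list had a positive value (median 0.95, 2 called higher, background 1.33%), and the part of such cells in the mitotic values was not tested.

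Partners of the motors were also mostly lower at P14 than at P1. Of 24 light chains, adaptors and cargo linkers of kinesins, 15 were lower and 5 higher, beside 33.6% in each direction among all genes tested. Klc1 and Klc2, the light chains through which kinesin-1 binds cargo, had -1.49 (SE 0.05, edgeR adjusted p = 1.7e-08) and -1.54 (SE 0.06, edgeR adjusted p = 2.5e-08). Grip1, which links Kif5 motors to AMPA receptors, had -2.14 (SE 0.07, edgeR adjusted p = 8.1e-09). Hap1, the huntingtin-associated adaptor, rose by 2.41 (SE 0.10, edgeR adjusted p = 2.5e-08). Of 25 genes of dynein, dynactin and their regulators, which move cargo the other way, 20 were lower and 3 higher. Among them the heavy chain Dync1h1 had -1.06 (SE 0.05, edgeR adjusted p = 6.5e-08), the intermediate chain Dync1i2 -1.71 (SE 0.08, edgeR adjusted p = 7.1e-08), the light intermediate chain Dync1li1 -1.23 and the regulator Pafah1b1 (Lis1) -1.05. The list medians were -0.36 for partners and -0.46 for dynein genes, nearer to the median of all genes tested than that of the kinesins.

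Of 4 listed kinesins outside the Kif symbol pattern, 3 were lower at P14 than at P1. These were Kifc2, Kifc1 and the centromere motor Cenpe (-1.01, -0.88 and -0.66), and Kifc3 was not called (0.12). Of 22 other spindle genes 13 were lower and 1 higher, beside 33.6% in each direction among all genes tested. Racgap1, the partner of Kif23 in centralspindlin, had -1.49 (SE 0.19, edgeR adjusted p = 7.8e-05). Cdca8 of the chromosomal passenger complex had -1.17, the microtubule bundler Prc1 -0.72 and the topoisomerase Top2a -0.98. Between P21 and P14, 18 of the 22 were lower and 2 higher (median -1.64). The 2 higher genes were Spc25 and Bub1b. The summed share of the list was 0.0856% and 0.0867% at P21, against 0.0368% to 0.0377% at P14, and Spc25 alone had 28209 and 26369 counts at P21. Without Spc25 the share was 0.00857% and 0.00687% at P21, against 0.0150% to 0.0160% at P14. Of the partners 7 were lower and 3 higher at P21, and of the dynein genes 7 were lower and 2 higher, beside 19.3% lower and 14.6% higher among all genes tested. Between AAV2-Cre and AAV2-GFP libraries edgeR called 0 of the 75 genes on these 4 lists. Of the 75, 18 had an unadjusted edgeR p under 0.05, against 16.5% of all genes tested. With limma-voom 0 were called. DESeq2 called 3 spindle genes higher and 4 genes of the other lists lower, beside 798 higher and 528 lower of all 18395 genes tested.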

How the data were processed

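Counts of 13 RNA-seq libraries were analysed. Per the labels, the authors used FastQC 0.11.9, Trimmomatic 0.39, HISAT2 2.2.1 with GRCm38, and featureCounts (Subread 2.0.3). The deposited counts per gene were whole and not normalized, and no column was left unused. The strand setting is not given in the sources used here. Gene names, biotypes and summed exon lengths came from GENCODE M21, matched by Ensembl ID for 52403 of 52550 genes. The members, roles and gene lists were chosen with earlier results of these data known.

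The 5 knockout libraries (AAV2-Cre over AAV2-GFP) and the 8 development libraries (P14 over P1, P21 over P14) were fitted separately in R 4.3.3 with edgeR 4.0.16 (filterByExpr, TMM, glmQLFit, glmQLFTest). Benjamini-Hochberg adjustment was over all genes tested, and a gene was called at an adjusted p under 0.05. The biological coefficient of variation came to 0.340 for the knockout libraries and 0.109 for the development libraries. A separate animal behind each library is not stated in the labels, so p-values measure the spread between these libraries, and replicates differed beyond sampling noise in every group. The scripts were tested on simulated data. Alternatives used DESeq2 1.42.0, limma-voom (limma 3.58.1), DESeq2 size factors, no scaling, no filter, a floor of 10 counts per library, a joint fit of the 13 libraries, a fold limit, the replicate number as a block, and each library left out.

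Values of every library are given for Kdm6a, for the 6 called kinesins with the largest change per direction and comparison at a mean log2 CPM of at least 1, for the 4 with the smallest p where none was called, for the 5 with the most CPM per kilobase, and for Kif5a, Kif5b, Kif5c, Kif1a and Kif11. Of each partner list the 4 genes with the smallest p for P14 over P1 are named. Other genes were named after their values were seen. Sequences were read from RefSeq promoters.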

Additional observations from a re-analysis of the deposited data

How the results depend on the processing

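For AAV2-Cre over AAV2-GFP, the counts of 0 higher and 0 lower kinesins became 1 higher and 2 lower with DESeq2, and 1 higher and 4 lower with all 13 libraries in 1 fit. They became 1 lower with limma-voom, 1 lower without scaling, 2 lower without a low-count filter and 1 lower with at least 10 counts in every library. The median of mitotic kinesins in that comparison was 0.17 to 0.69 when each library was left out, lowest without AAV2-Cre replicate 1. For P14 over P1, a fold limit of 1 on the log2 scale left 2 higher and 13 lower, and the median of transport kinesins was -0.72 without scaling, where the median of all genes moved to 0.11. For P21 over P14, the fold limit left 0 higher and 7 lower, beside 563 higher and 1923 lower of all 20890 genes tested. All 13 libraries in 1 fit gave 2 higher and 7 lower, beside 627 higher and 1997 lower of 23844 genes tested. The cause was not tested, other than the fold limit removing small changes by construction. No count, median or called gene turned its direction under the alternatives run. Of the genes not called, 10 changed sign 26 times, 13 of them for AAV2-Cre over AAV2-GFP, where Kif23 (0.49) had -1.51 without AAV2-Cre replicate 1, Kif7 (0.57) had -0.34 without AAV2-Cre replicate 2 and Kif26b (-0.78) had 0.19 without AAV2-GFP replicate 2. With the replicate number as a block the counts were 0 and 0, 4 and 23, and 4 and 10, where Kif20a and Kif22 lost their P21 calls. Deviations of libraries with the same number correlated between -0.04 and 0.02. They gave no sign that the numbers pair libraries, but cannot exclude it, since deviations in groups of 2 libraries mirror each other. Over all genes, DESeq2 called 798 higher and 528 lower for AAV2-Cre over AAV2-GFP, against 244 and 54 with edgeR, all 13 libraries in 1 fit called 1433 and 1071, and leaving out 1 library called 5 to 253 higher and 0 to 31 lower. For P21 over P14, no scaling called 2326 higher and 4722 lower, against 3047 and 4024 with TMM. The filter of at least 10 counts left Kif6, Kif23 and Kif2c untested in development. Genes with few counts, such as Kif28, Kif27 and Kif6, have wide errors at this depth.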
